A study of Mus musculus with 2 samples.

Results

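The transcripts of 10 imprinted genes, H19, Igf2, Igf2r, Peg3, Mest, Snrpn, Cdkn1c, Grb10, Plagl1 and Dlk1, were followed in fetal mouse testis RNA before and after precipitation of FLAG-tagged NANOS2. Their array features were found by gene symbol, or by an older symbol of the same gene, without use of their measured values. The genes themselves were listed with earlier results of these data known. The 10 genes had 18 of the 41174 non-control features of the array and were among 15269 genes tested. For 8 of the 10 genes the precipitate held a lower relative signal than the input, by 3.50-fold to 5.94-fold. Igf2r and Snrpn did not pass the test, and no gene of the list rose.

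NANOS2 is an RNA-binding protein of fetal male germ cells, and the comparison asks which transcripts an antibody against its FLAG tag recovers from the gonad. Gonads were taken from male MCH embryos on embryonic day 14.5, all with the transgene labelled Tg-Nanos2 enhancer-3xFLAG-Nanos2-3'UTR. The input group was gonad RNA with no antibody. The FLAG IP group was RNA recovered with Anti-FLAG M2-Agarose. Each group had 2 arrays (n = 2), biological duplicates in the words of the series. The labels do not say how many gonads were pooled, and they describe RNA extraction alike for both groups. Neither a precipitate of gonads lacking the transgene nor one with another antibody was analysed here, so RNA that binds the beads on its own was not measured.

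An imprinted gene is read mainly or only from the copy inherited from one parent, because DNA methylation set in the egg or the sperm marks the other copy. Such genes lie in clusters, each under a control region, and many of them steer fetal and placental growth. Igf2, Peg3, Mest, Snrpn, Plagl1 and Dlk1 are known as genes of the paternal copy, and H19, Igf2r, Cdkn1c and Grb10 in most tissues as genes of the maternal copy. In the fetal gonad the germ cells erase the imprints they inherited, and male germ cells then set paternal marks anew, while the somatic cells around them keep theirs. The arrays do not tell the parental copies apart.

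Several of these transcripts carry more than the messenger that the array reads. H19 is the precursor of miR-675, Igf2 holds miR-483 in an intron and Mest holds miR-335 in an intron. The 6 mature microRNAs, printed to show what the 3 host transcripts contain, are given as in RefSeq on build GRCm38.p6, with the seed (bases 2 to 8) in capitals. The H19 hairpin lies on the minus strand of chromosome 7 (mature 5p at chr7:142577112-142577133, 3p at chr7:142577078-142577099), as does that of Igf2 (5p at chr7:142654968-142654989, 3p at chr7:142654932-142654952). The Mest hairpin lies on the plus strand of chromosome 6 (5p at chr6:30741314-30741336, 3p at chr6:30741354-30741375).
mmu-miR-675-5p (H19): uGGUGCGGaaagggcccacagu
mmu-miR-675-3p (H19): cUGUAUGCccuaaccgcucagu
mmu-miR-483-5p (Igf2): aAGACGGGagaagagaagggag
mmu-miR-483-3p (Igf2): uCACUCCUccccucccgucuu
mmu-miR-335-5p (Mest): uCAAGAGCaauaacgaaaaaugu
mmu-miR-335-3p (Mest): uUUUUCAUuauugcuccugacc
The 6 microRNAs have 6 different seeds. The microRNAs themselves were not analysed here, and the values below are those of the host transcripts.

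Imprinted control regions are known for the hexamer TGCCGC, which the zinc finger protein ZFP57 binds when its CpG is methylated. The hexamer was searched on both strands, as TGCCGC and GCGGCA, in windows of 300 bases from RefSeq (250 before to 50 after a gene's start, build GRCm38.p6). It was found in 5 of the 8 genes of the list that have a window, against 13.1% of 27025 genes. By window it was in 6 of their 17 (35.3%), against 11.6% of 32851. A gene counted if any of its windows held the hexamer, so genes with more windows had more chances. The windows were not matched for base content. The matches are printed below on the strand of the gene with the hexamer in capitals, as a description of these 5 genes.
Grb10, chr11:12037381-12037406, minus strand: gtgcggggagGCGGCAggaagggaag
Igf2, chr7:142661226-142661251, minus strand: cggtgtcccaGCGGCAgcacagattt
Mest, chr6:30737973-30737998, plus strand: gaggggcgctGCGGCAggatgggcgg
Mest, chr6:30737800-30737823, plus strand: ccttgcccGCGGCAttaacacatg
Plagl1, chr10:13090732-13090757, plus strand: ggcgtgttgcGCGGCAaagcccacgg
Snrpn, chr7:60005186-60005211, minus strand: cccctgcattGCGGCAaaaatgtgcg
The hexamer starts 2 bases before the start of Snrpn, 67 and 242 before that of Mest and 90 before that of Plagl1, and it lies 24 bases after the start of Grb10 and 30 after that of Igf2. A match is a run of letters and not a measured site. Of these 5 genes, 4 were called lower in the FLAG IP and Snrpn was not called.

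Brightness varied among the arrays. Input replicates 1 and 2 had a 75th percentile of 1026 and 1038 intensity units, and FLAG IP replicates 1 and 2 had one of 55.7 and 608. Every value below is a log2 processed signal from which the array's own 75th percentile was subtracted. The shares of spots well above background were 66.0%, 70.2%, 42.7% and 65.4% in the same order. On that scale the lowest feature well above background lay at -2.77 on FLAG IP replicate 1 and at -5.97 on replicate 2, so a weak transcript had less room to fall on replicate 1. The median gap between replicates over all genes was 0.085 for the input and 0.43 for the FLAG IP. The gonad label was borne out by its markers: each marker gene tested for germ, Sertoli, Leydig, mesenchymal, endothelial and erythroid cells was well above background on both input arrays. Differences are log2 fold changes (FLAG IP over input) with limma's SE, and a gene was called at a Benjamini-Hochberg adjusted p below 0.05 over all 15269 genes. The 4 arrays limit the precision of each.

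At that threshold 8 of the 10 imprinted genes were lower, where 25.4% of all genes were lower, and 0 of 10 were higher, where 28.0% of all genes were. Their median log2 fold change was -2.06, and that of all genes was 0.072. Genes of either parental copy were among those that fell: 5 of the 6 paternally expressed genes, with a median over the 6 of -2.17, and 3 of the 4 maternally expressed ones, with a median over the 4 of -2.04. The input is RNA of whole gonads and the FLAG IP is RNA recovered from such gonads with the antibody. These values do not tell from which cells a transcript came.

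**Figure D1:**
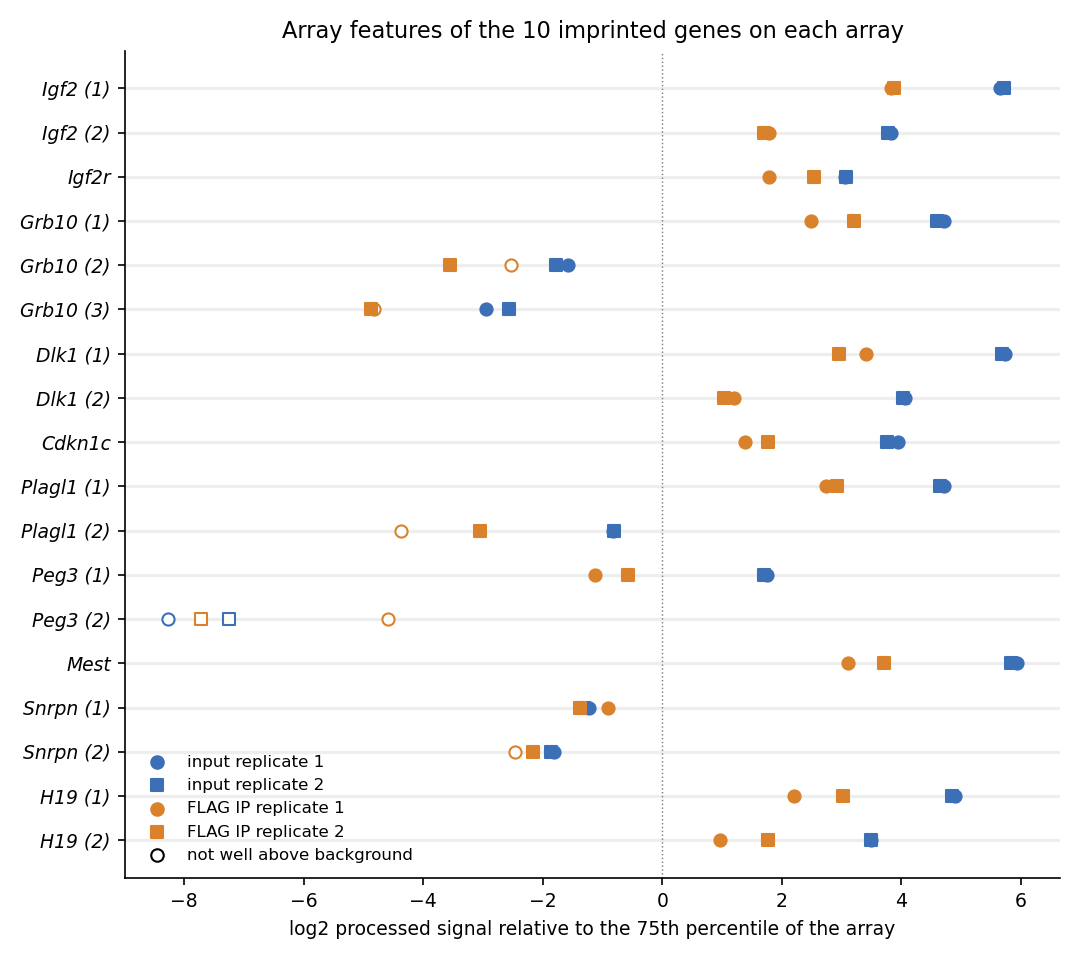
Each row is an array feature of a listed gene, numbered where a gene has several (1 is the brightest in the input), and points give log2 processed signal relative to the 75th percentile on input (blue) and FLAG IP (orange) arrays, with replicate 1 as circles, replicate 2 as squares and open symbols for signal not well above background. Of the 17 features tested, 16 have both FLAG IP points left of both input points, the exception being the first Snrpn feature, and the second Peg3 feature was not well above background on any array.

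The growth factor branch of the list holds Igf2, which encodes the fetal growth factor IGF2, the receptor gene Igf2r, whose product takes up and clears IGF2, and Grb10, whose product binds insulin and IGF receptors and dampens their signal. Igf2 was measured by a feature with 10 spots on each array (A_51_P516826), at 5.65 and 5.71 on the input arrays and 3.83 and 3.88 on the FLAG IP arrays. Both precipitates lay far below both inputs, and the groups did not overlap. The fall was 1.82 ± 0.16 (SE) on the log2 scale, or 3.53-fold, with a 95% interval of -2.25 to -1.39 and an adjusted p of 0.00393. The spots of this feature had an SD of 0.064 and 0.035 on the input arrays and 0.19 (9 spots kept) and 0.054 on FLAG IP replicates 1 and 2, so spot noise was small against the fall.

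A second Igf2 feature (A_51_P516833) read 3.82 and 3.77 in the input and 1.78 and 1.71 in the FLAG IP, a fall of 2.04. Igf2 had the closest FLAG IP replicates of the list, with a gap of 0.054, where the median gap of the 10 genes was 0.52 and the widest 0.83.

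Igf2r read 3.05 and 3.08 on the input arrays and 1.78 and 2.54 on FLAG IP replicates 1 and 2 (A_51_P125467). Both precipitates were below both inputs, but they were 0.76 apart. The difference was -0.90 ± 0.31 (adjusted p = 0.0721), with an unadjusted 95% interval of -1.76 to -0.05, and the gene was not called. With FLAG IP replicate 1 left out it was -0.52 (adjusted p = 0.00709), and with replicate 2 left out -1.29 (adjusted p = 0.000639), both then called because the spread came from the input arrays alone. It was also called when only features well above background on all 4 arrays were tested (adjusted p = 0.0483).

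Grb10 has 3 features. The brightest (A_52_P115787) read 4.72 and 4.59 in the input and 2.49 and 3.21 in the FLAG IP, a fall of 1.81 ± 0.30 (3.50-fold, adjusted p = 0.0113). Without input replicate 1 it missed the threshold, with a fall of 1.74 (adjusted p = 0.056), as it did with normexp (adjusted p = 0.0568). The other features were much weaker and read -2.95, -2.56, -4.82 and -4.87 (A_52_P40363) and -1.57, -1.77, -2.53 and -3.55 (A_51_P187151) on input replicates 1 and 2 and FLAG IP replicates 1 and 2. Neither was well above background on FLAG IP replicate 1. All 3 features were lower in the precipitate on both arrays, and the last of them did not pass the test of single features (-1.37 ± 0.41, adjusted p = 0.0601).

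H19 is a long noncoding RNA transcribed from the maternal copy next to Igf2. Its brighter feature (A_51_P142196) read 4.90 and 4.85 on the input arrays and 2.20 and 3.02 on the FLAG IP arrays. FLAG IP replicate 1 was the lower of the precipitates by 0.83, and both were below the inputs. The fall was 2.27 ± 0.33, or 4.81-fold (adjusted p = 0.00855), and the call was lost with normexp background correction (adjusted p = 0.0587). A second feature (A_52_P571350) gave 3.49 on both input arrays and 0.97 and 1.77 on the FLAG IP arrays, with the same order of replicates. H19 and Igf2 share enhancers and are read from opposite parental copies, and both were lower in the precipitate.

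Dlk1 encodes a membrane protein related to the Notch ligands, known from stromal and precursor cells of many fetal organs. Its brighter feature (A_51_P135618) read 5.73 and 5.69 in the input and 3.41 and 2.95 in the FLAG IP. Unlike most genes of the list, it was lower on FLAG IP replicate 2 than on replicate 1. The fall was 2.53 ± 0.22 (5.78-fold, adjusted p = 0.00397). The other feature (A_52_P177324) read 4.07, 4.03, 1.20 and 1.03 in the same order and fell by 2.93 ± 0.17 (7.65-fold) in the fit of single features.

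Cdkn1c encodes the cell cycle inhibitor p57, which blocks cyclin-dependent kinases. It read 3.95 and 3.76 on the input arrays and 1.39 and 1.77 on the FLAG IP arrays (A_51_P339540). The groups were well separated, and the fall was 2.28 ± 0.21 (4.84-fold, adjusted p = 0.00408). Its input replicates were 0.19 apart, the widest input gap among the 10 genes.

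Plagl1 and Peg3 encode zinc finger proteins. Plagl1 is a transcription factor known to act on other imprinted genes, and its brighter feature (A_52_P532456) read 4.71 and 4.65 in the input and 2.74 and 2.92 in the FLAG IP. The fall was 1.85 ± 0.17 (3.60-fold, adjusted p = 0.004). A weaker feature of Plagl1 (A_51_P432034) read -0.82 and -0.80 in the input and -4.37 and -3.04 in the FLAG IP, a fall of 2.90 ± 0.50, but it was not well above background on FLAG IP replicate 1.

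Peg3 read 1.75 and 1.70 on the input arrays and -1.13 and -0.57 on the FLAG IP arrays (A_51_P206037). Both precipitates were below both inputs. The fall of 2.57 ± 0.25 (5.94-fold, adjusted p = 0.00418) was the widest point estimate of the list. Its second feature, designed to another transcript sequence, was not well above background on any of the 4 arrays and gave no value.

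Mest encodes a protein of the hydrolase family and is known from fetal mesoderm. It read 5.94 and 5.84 in the input and 3.10 and 3.71 in the FLAG IP (A_51_P124535). The fall was 2.48 ± 0.27 (5.59-fold, adjusted p = 0.00482), again with replicate 1 the lower of the precipitates.

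Snrpn was the exception. It encodes a spliceosomal protein of the Sm family that is best known from neurons. Its brighter feature (A_52_P354390) read -1.23 and -1.31 on the input arrays and -0.91 and -1.37 on FLAG IP replicates 1 and 2. One precipitate lay above both inputs and the other below, so the groups overlapped, and the difference was 0.13 ± 0.22 (adjusted p = 0.657). The 95% interval of -0.49 to 0.75 lies apart from the intervals of the 8 genes that fell, although no test compared genes with each other. The other feature (A_51_P168862) read -1.81 and -1.86 in the input and -2.47 and -2.16 in the FLAG IP, a difference of -0.49 ± 0.20 that did not pass (adjusted p = 0.12), and it was not well above background on FLAG IP replicate 1. The sign of Snrpn was not stable: with its 2 features averaged it was -0.18, scaled to the array median -0.0034 and without FLAG IP replicate 1 -0.10. Without FLAG IP replicate 2 it was 0.36 and passed the test as higher (adjusted p = 0.0265).

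**Figure D2:**
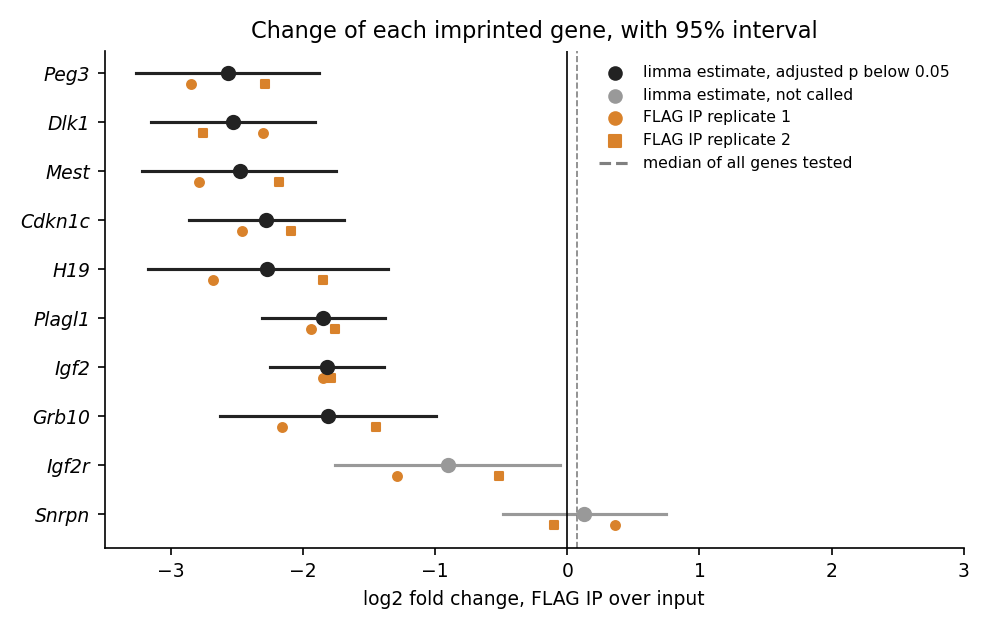
Large points and lines give the limma log2 fold change of FLAG IP over input and its 95% interval for each imprinted gene (black, called; grey, not called), and small orange symbols give each FLAG IP array against the input mean. The 8 called genes lie between -2.57 and -1.81 with overlapping intervals, apart from the all-gene median of 0.072 (dashed line), while Igf2r and Snrpn lie at -0.90 and 0.13.

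Among the 8 genes that fell, the data gave no order: their 95% intervals all hold the stretch from -2.25 to -1.91. FLAG IP replicate 1 was below replicate 2 in 8 of the 10 genes, against 42.2% of all genes. Taken feature by feature, 13 of 17 were called lower and 0 higher, where 22.4% of all features were called lower. Both FLAG IP arrays were below both input arrays for 16 of the 17, where 37.4% of all features showed this. The calls of single features were lost without input replicate 1 and without input replicate 2, with adjustment over all features. In such runs the spread comes from the FLAG IP arrays alone, and fewer of all genes were called too.

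The genes around them were called lower or higher about as often as genes at large. In 5 domains that hold 6 of the listed genes, read in RefSeq order, 24 other genes were tested, of which 5 were lower (20.8%, against 25.4% of all genes), 7 higher (29.2%, against 28.0%) and 12 not called. These domains were drawn after values were known and are a description.

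At the Dlk1 to Dio3 domain, Dlk1 stands beside Meg3, Rian and Mirg, noncoding RNAs of the maternal copy. Meg3 read 2.0 and 2.03 in the input and 2.31 and 1.72 in the FLAG IP, so that the groups overlapped (-0.0027 ± 0.26). A second, weak Meg3 feature read -3.21 and -3.36 in the input and -4.67 and -5.78 in the FLAG IP and passed the test of single features as lower (adjusted p = 0.0313), but it was not well above background on either FLAG IP array, so the features of Meg3 disagree. Rian was at -1.35 ± 0.40 (adjusted p = 0.0503), and Mirg was not well above background on either FLAG IP array. At the far end, Dio3, which encodes an enzyme that inactivates thyroid hormone, read -1.72 and -1.63 in the input and 1.08 and 1.37 in the FLAG IP and rose by 2.90 ± 0.19 (adjusted p = 0.0038).

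On the H19 side, Ins2 did not pass (0.40 ± 0.28), and Ascl2, a transcription factor gene of the placenta, rose by 2.16 ± 0.25 from low input values of -3.82 and -3.29 to -1.31 and -1.49. In the neighbouring domain of Cdkn1c, the tetraspanin gene Cd81 fell by 2.62 ± 0.30, Tssc4 by 1.44 and the channel gene Trpm5 by 2.74. Trpm5 was well above background on 1 FLAG IP array, and with normexp it was at -1.10 and not called (adjusted p = 0.228). The potassium channel gene Kcnq1 rose by 1.64, the transporter gene Slc22a18 by 1.40 and Nap1l4, a histone chaperone gene, by 1.0 ± 0.17. Phlda2, a known brake on placental growth, was at 0.14 ± 0.24 and was not called. Kcnq1ot1, the noncoding RNA that silences the domain, was not well above background in the FLAG IP. Of these calls, those of Tssc4, Kcnq1, Slc22a18 and Nap1l4 were lost without input replicate 1, without input replicate 2 and with normexp, under which Nap1l4 was at 0.19.

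At the Snrpn domain, the flat value of Snrpn was matched by Snurf, whose reading frame lies on the same transcript, at -2.27 and -2.38 in the input and -1.74 and -2.60 in the FLAG IP (0.15 ± 0.34). Further along, Ndn and Magel2, MAGE family genes, fell by 1.95 ± 0.15 and 1.69 ± 0.15. Magel2 was well above background on 1 FLAG IP array, and its sign turned with normexp (0.11, adjusted p = 0.916). Mkrn3, a ring finger protein gene, rose by 3.37 ± 0.30, from -2.89 and -2.90 to 0.84 and 0.10. Next to Peg3, Usp29 rose by 0.71 ± 0.16 (adjusted p = 0.0268). That call of Usp29 was lost without input replicate 1 (adjusted p = 0.295), without input replicate 2 (adjusted p = 0.382) and with normexp (adjusted p = 0.124). Its sign turned when its features were averaged (-0.093).

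**Figure D3:**
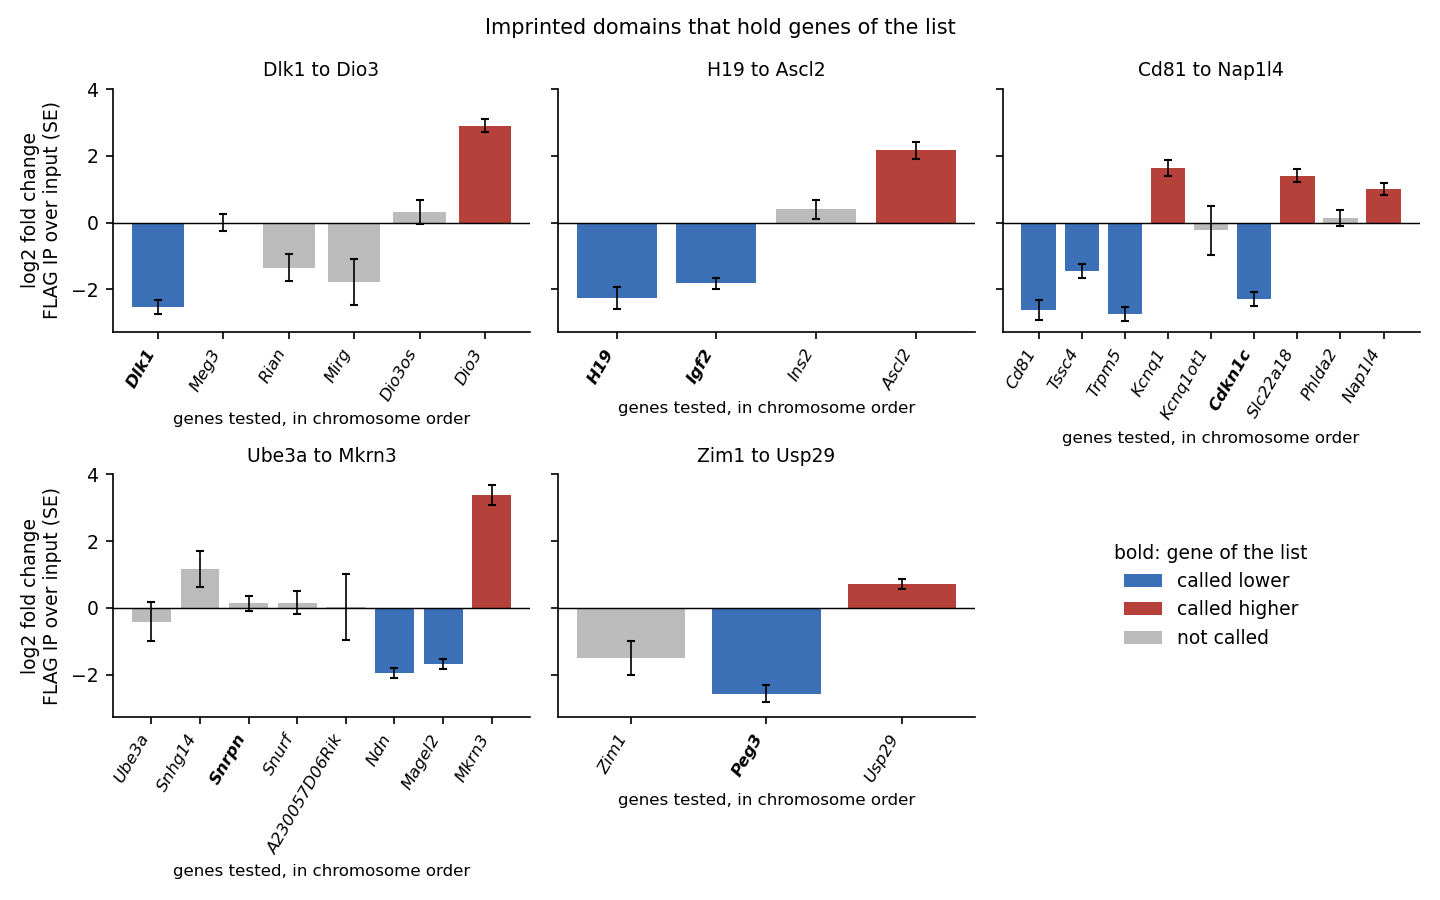
Bars give the log2 fold change of FLAG IP over input with its SE for each gene tested in 5 imprinted domains, in chromosome order, with the 6 listed genes in bold. Domains that hold a listed gene called lower also hold genes called higher, as with Dlk1 at -2.53 and Dio3 at 2.90.

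Other imprinted genes were counted from lists made by the parental copy they are known for. Whether that copy alone is read in the gonad was not tested. Of 21 other paternally expressed genes tested (of 22 listed), 5 fell, 8 rose and 8 were not called, with a median of -0.00096. Among all genes tested, 25.4% fell and 28.0% rose. Nnat, a membrane protein gene, fell by 3.31 ± 0.32, Peg12 by 2.52 and Ndn by 1.95, and Mkrn3 rose by 3.37, Dio3 by 2.90 and Nap1l5 by 2.90. Nap1l5 came from -5.20 and -5.38 in the input and passed background on only 1 of the 2 FLAG IP arrays. Fewer of the paternally expressed genes rose with either input array left out, and more fell without FLAG IP replicate 1, as was so for all genes.

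Of 23 other maternally expressed genes tested (of 26), 7 fell, 6 rose and 10 were not called, with a median of -0.42. The shares over all genes were again 25.4% lower and 28.0% higher. Gnas, which encodes a G protein subunit, fell by 2.98, Dcn, which encodes the matrix protein decorin, by 2.70 and Cd81 by 2.62. Dcn is also among the interstitial mesenchyme markers counted below. Calcr, the calcitonin receptor gene, rose by 3.30, Ascl2 by 2.16 and Blcap by 1.78. The input values of Calcr were weak, at -4.84 and -4.63. Of the 5 Gnas features, 2 were lower on their own, and averaged they gave -1.56 (adjusted p = 0.0728); overlapping transcripts start at several promoters there. Of the 3 Blcap features, 1 was higher on its own, averaged they gave 0.76, and the call was lost with normexp (adjusted p = 0.0705). Fewer of the maternally expressed genes fell or rose with either input array left out, and more with either FLAG IP array left out. The same held for all genes, since the spread then comes from the arrays of the other group alone.

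The genes of the IGF system, the pathway of Igf2, Igf2r and Grb10, mostly went down. Of 16 tested (of 17 listed, without the imprinted genes above), 11 fell, 2 rose and 3 were not called, with a median of -1.10. Over all genes 25.4% fell and 28.0% rose. The binding protein genes Igfbp7, Igfbp5 and Igfbp4 fell by 3.28, 3.06 and 2.97, and the adaptor gene Grb7 rose by 2.46 and Igfbp1 by 3.11. Igfbp1 came from weak input values of -4.38 and -5.13. The call of Grb7 was lost with normexp (1.72, adjusted p = 0.153). The ligand gene Igf1 fell by 2.89 ± 0.31 and the receptor gene Igf1r by 0.75 ± 0.18. Both were picked here for their role beside Igf2, and Igf1 was well above background on 1 FLAG IP array. Of the 3 Igf1r features 1 was lower on its own, and the others were at 0.21 and 0.53 and did not pass. Fewer IGF system genes fell when either input array was left out, as was so for all genes.

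Factors that set or keep imprints showed no common direction. Of 14 tested (of 15), 3 fell and 3 rose, where 25.4% of all genes fell and 28.0% rose. The other 8 were not called, and the median was -0.046. Zfp57, whose product reads the methylated hexamer, fell by 1.38 from weak signal, its partner gene Trim28 by 1.07 and the methyltransferase gene Dnmt3a by 0.75. Arid4b rose by 1.93, Arid4a by 1.66 and the insulator gene Ctcf by 0.59. Zfp57 was well above background on 1 FLAG IP array, and its sign turned with normexp (0.68, adjusted p = 0.536). With normexp the calls of Trim28, Dnmt3a and Ctcf were lost too. Fewer of the factors were called in either direction when either input array was left out, and more when either FLAG IP array was. Calls over all genes changed the same way.

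For the Notch family, to which Dlk1 is related, 8 genes were tested (of 9). Of these 3 fell and 2 rose, where 25.4% of all genes fell and 28.0% rose. The other 3 were not called, and the median was -0.35. The receptor genes Notch3, Notch4 and Notch2 fell by 1.91, 1.36 and 1.23, and the ligand genes Dll1 and Jag2 rose by 1.85 and 1.12. With normexp Notch4 was at -0.52 (adjusted p = 0.372), and the calls of Notch2 and Jag2 were lost too. Of the 3 Notch2 features 1 was lower on its own, and averaged they gave -0.72 (adjusted p = 0.0952). Fewer Notch family genes were called in either direction when either input array was left out, as was so for all genes.

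Marker genes of gonadal somatic cells were lower in the same precipitates. Over 5 somatic lists, 37 of 41 genes fell and 0 rose, where 25.4% of all genes fell and 28.0% rose. Their median was -2.15, beside -2.06 for the imprinted genes. The 10 Sertoli genes all fell (median -2.17), their summed relative signal on the linear scale being 137 and 119 in the input and 20.1 and 22.2 in the FLAG IP. The 8 Leydig genes all fell (median -2.36; 163 and 148 against 26.9 and 24.1), as did the 10 interstitial mesenchyme genes (median -2.32; 339 and 320 against 75.1 and 49.0). Of 7 endothelial genes 4 fell (median -1.20; 8.25 and 6.69 against 3.59 and 2.45), and of 6 erythroid genes 5 fell (median -2.37; 167 and 157 against 17.5 and 14.1).

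Of the 10 germ cell markers 4 rose (Ddx4, Dazl, Tdrd1 and Sycp3) and 1 fell (Dnd1), where 28.0% of all genes rose and 25.4% fell. The other 5 were not called, and the median of the 10 markers was 0.47. Their summed signal was 89.7 and 95.2 in the input and 164 and 184 in the FLAG IP. The summed signal of the 10 imprinted genes was 275 and 265 in the input and 57.4 and 70.9 in the FLAG IP. No defining marker of a somatic type was at 0, and only Lhcgr, among the Leydig genes, and Epb42, among the erythroid genes, were not well above background on either FLAG IP array. The part of the somatic cells' RNA in the fall of the imprinted genes was not tested.

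**Figure D4:**
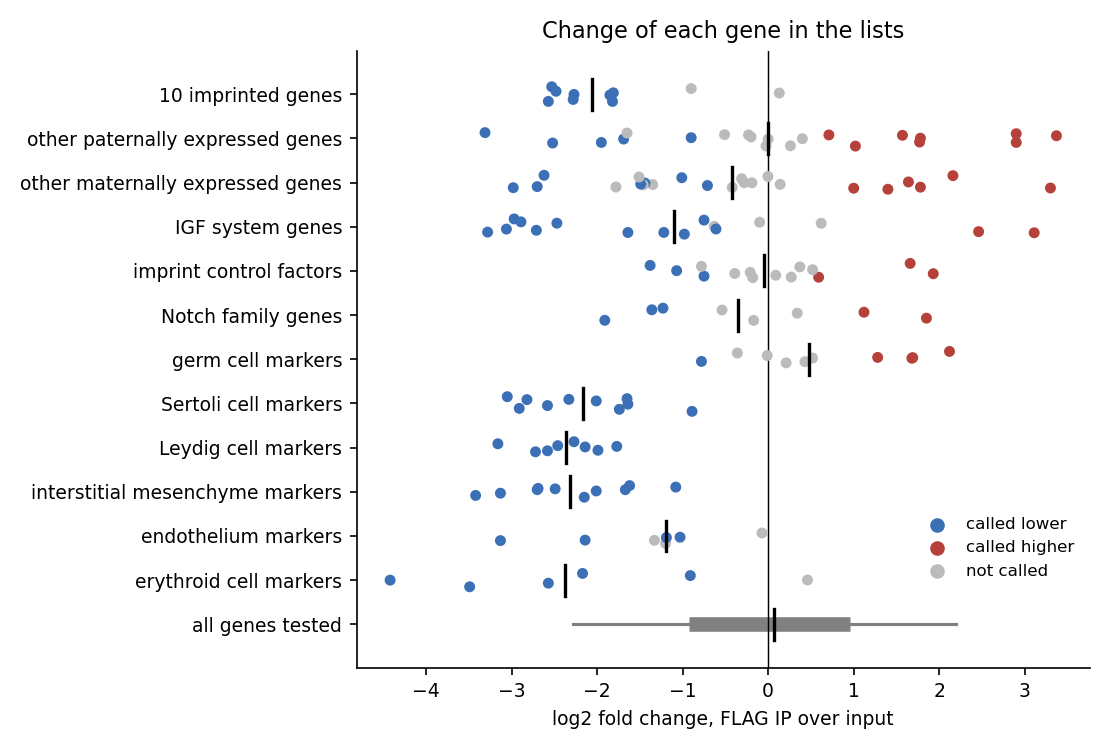
Each point is a gene's log2 fold change of FLAG IP over input, coloured by its call, black ticks are list medians, and the grey bar and line give the middle 50% and 90% of all genes tested. The imprinted genes have a median of -2.06, with Igf2r and Snrpn apart at -0.90 and 0.13. Marker medians are -2.17 (Sertoli), -2.36 (Leydig), -2.32 (mesenchyme), -1.20 (endothelium), -2.37 (erythroid) and 0.47 (germ cell).

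Genes with the most similar profile over the 4 arrays were found for the 3 imprinted genes with the widest change, by Euclidean distance between values with each gene's mean subtracted. Nearest to Peg3 were Masp1, a complement protease gene (distance 0.020), Mthfsd (0.060) and Tmem234 (0.063). Nearest to Dlk1 were Apoe, the apolipoprotein gene (0.027), Prdx2 (0.031) and Pcdh17 (0.054), and nearest to Mest were Arpp19 (0.021), Serf2 (0.024) and Selenoh (0.046). Such profiles were common: 107, 116 and 101 genes lay within a distance of 0.25 of Peg3, Dlk1 and Mest, of 15264 compared.

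The authors' deposited table holds a ratio for each feature, from which log2 differences of FLAG IP over input were taken for the imprinted genes. In the authors' deposited table these were -1.93 for the brighter Igf2 feature, -2.38 for that of H19, -2.65 for that of Dlk1 and 0.0098 for that of Snrpn. For each of the 17 features tested, the value from the authors' deposited table was lower than the fitted one by 0.11 to 0.12, a common shift of scale.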

How the data were processed

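RNA of 2 input and 2 FLAG IP samples was hybridised to one-colour Agilent mouse arrays from 0.20 µg of RNA, per the labels' protocols. The submitters' processing notes name Agilent Feature Extraction 9.5. Per the file headers, the deposited scans give processed, median and background signal as intensity. The table deposited by the authors holds a raw intensity per group, equal to the mean of both arrays, a ratio, and t-test p-values that were not used. There were 0 unmatched per-sample columns. Array headers and RefSeq tables use different builds, so array coordinates are not printed. RefSeq names (GRCm38.p6) were matched by gene ID for 31004 features, by older symbol for 309 and by symbol for 155; 1108 kept the file's name and 8598 had none.

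Log2 processed signal was reduced by the 75th percentile of the 43379 non-control spots. Outlier spots (61 and 52 for input, 90 and 104 for FLAG IP) were missing, repeated spots averaged, and features kept if well above background on both arrays of a group. The brightest feature stood for a gene. Limma 3.58.1 under R 4.3.3 (lmFit, eBayes, two-sided; 2 residual and 2.08 prior degrees of freedom) compared the groups, with Benjamini-Hochberg adjustment at 0.05. The fit was tested on simulated data. For genes whose signal in a group was not well above background, no measured fold is given. P-values measure the spread between these samples.

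Input replicate 1 lay alone on its slide. The run with the slide as a block therefore matches the run without that array and is not a separate check.

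The members and lists were chosen with earlier results of these data known. Named genes were all 10 imprinted genes and, of each other list, up to 3 called genes with the most negative and 3 with the largest change.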

Additional observations from a re-analysis of the deposited data

How the results depend on the processing

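The 8 genes that fell kept their direction in each alternative run; apart from the unscaled values, the falls ranged from 1.31 (Igf2) to 3.24 (Dlk1). The count of imprinted genes called lower was 7 to 9 and of those higher 0 to 1 with an array left out, 7 with the slide as a block (Grb10 lost) and 6 with normexp (H19 and Grb10 lost). FLAG IP replicate 1 was dim (42.7% of spots well above background), and precision is limited by 2 arrays a group with a median FLAG IP replicate gap of 0.43. Median log2 changes of all genes moved from 0.072 to 0.38 with normexp, 0.55 without a filter, 0.19 with a filter on all 4 arrays and -2.41 without scaling.

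Without scaling, 0 of the imprinted genes, their features or any other list were called in either direction with limma, 9 of the 10 imprinted genes having an unadjusted p under 0.05. Leaving out the scaling shifts each of these genes by -2.49, so signs turned by construction for Snrpn (-2.36), Blcap (-0.71), Ascl2 (-0.33), Grb7 (-0.024), Ctcf (-1.90), Arid4a (-0.82), Arid4b (-0.56), Jag2 (-1.37), Dll1 (-0.64), Kcnq1 (-0.84), Slc22a18 (-1.08), Nap1l4 (-1.48) and Usp29 (-1.78). Snrpn was -0.0034 with the array median as scale, -0.18 with features averaged and -0.10 and 0.36 without FLAG IP replicates 1 and 2, and Usp29 was -0.093 with features averaged. With normexp Zfp57 was 0.68 and Magel2 0.11; the cause was not tested.

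With normexp 9.15% of all genes were lower and 8.32% higher, against 25.4% and 28.0% in the main fit. In that run 0 imprint control factors and 0 single features of the imprinted genes were lower. The lower and higher counts were 3 and 3 for other paternally expressed genes and 4 and 2 for maternally expressed genes. For the IGF system the counts were 4 and 1, and for the Notch family 1 and 1. With the slide as a block they were 3 higher paternally expressed, 3 lower and 3 higher maternally expressed, 6 lower IGF, 0 lower and 1 higher control factors, 0 lower and 1 higher Notch genes and 0 single features lower. Without a filter on dim features they were 7 lower IGF genes, 0 lower control factors and 0 single features lower. With the filter on all 4 arrays 5 paternally expressed genes were higher. Of all genes, 13.8% were lower and 16.8% higher without the filter, and 27.8% and 35.9% with the filter on all 4 arrays. The samples share only a replicate number: deviations of same-numbered samples correlated at 0.0497 over 15265 genes. The replicate block gave 9 lower imprinted genes (Igf2r added, adjusted p = 0.0488) and 10 lower maternally expressed genes. Of all genes it gave 3875 lower and 4130 higher, against 3883 and 4275. Fewer of all genes were called with the slide as a block or an input array left out, and more with a FLAG IP array left out.

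With each array left out in turn, the counts lower and higher ranged from 4 to 8 and 3 to 11 for paternally expressed genes, from 3 to 13 and 3 to 8 for maternally expressed genes, from 0 to 16 and 0 to 1 for single features, from 6 to 12 and 2 to 3 for the IGF system, from 0 to 6 and 1 to 6 for control factors and from 0 to 4 and 1 to 3 for the Notch family.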
